A study of Rattus norvegicus with 8 samples.

Results

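Fezf2 and its paralog Fezf1 were examined in rat lung tumors induced by NNK, a carcinogenic nitrosamine of tobacco smoke. The members were the array's non-control probes whose RefSeq accession belongs to either gene, which gave 2 probes (2 genes) among 24684 probes and 13888 named genes. The pair was chosen by the measured difference of Fezf2 between tumor and normal lung on these same arrays, the strongest rise of an mRNA, with Fezf1 added as its paralog. Their lung values are therefore a description, without a test.

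Total RNA was profiled on the Arraystar rat lncRNA array, a 1-colour Agilent oligonucleotide array that also carries mRNA probes. Male F344 rats of the NNK treatment group gave 3 lung tumors and, matched to these, 3 samples of normal lung. Clots of whole blood came from 1 control rat and 1 rat of the NNK group, and all samples were taken at week 95. Histology in the study's methods described moderately differentiated adenocarcinoma. All lung tissue, the normal lung included, came from NNK-treated rats, and lung of control rats was not analysed here. For the NNK blood sample 1 label field repeated the text of a lung tumor. It was treated as blood, which its other labels give.

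Fezf2 and Fezf1 encode C2H2 zinc finger transcription factors that carry an eh1 motif, through which they recruit Groucho (TLE) corepressors. Fezf2 is best known for specifying the corticospinal and other subcerebral projection neurons of the cerebral cortex, and in the thymus it drives expression of tissue-restricted antigens in medullary epithelial cells. Fezf1 acts in the development of olfactory sensory neurons and in the migration of GnRH neurons.

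The promoter windows of both genes are shown because the paralogs differed in level in tumor, and their windows in base composition. A link between these was not tested. They run from 250 bases before to 50 bases after the annotated start, on the gene's strand, in RefSeq's annotation of GRCr8 (chr15:15203943-15204242, plus strand, for Fezf2 and chr4:52731669-52731968, minus strand, for Fezf1). Capitals mark GC boxes (GGGCGG).
Fezf2: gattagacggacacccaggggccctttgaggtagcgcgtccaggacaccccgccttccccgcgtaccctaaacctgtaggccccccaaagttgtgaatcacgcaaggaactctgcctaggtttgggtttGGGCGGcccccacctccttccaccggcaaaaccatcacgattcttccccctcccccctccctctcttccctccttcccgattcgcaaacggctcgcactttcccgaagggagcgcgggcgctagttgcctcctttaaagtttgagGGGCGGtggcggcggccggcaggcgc
Fezf1: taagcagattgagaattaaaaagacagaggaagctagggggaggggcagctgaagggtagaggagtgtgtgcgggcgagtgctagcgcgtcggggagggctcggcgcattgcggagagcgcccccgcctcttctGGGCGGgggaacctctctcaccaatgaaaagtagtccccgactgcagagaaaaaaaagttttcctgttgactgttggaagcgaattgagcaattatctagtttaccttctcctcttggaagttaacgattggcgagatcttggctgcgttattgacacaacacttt
The Fezf2 window held 63.3% G and C and 23 CpG sites, against medians of 51.7% and 7 over 33469 promoter windows of the same length. The Fezf1 window held 52% and 16 CpG sites. On both strands GGGCGG occurred 2 times in the Fezf2 window, 1 time in the Fezf1 window and in 33.1% of all windows. The letters CCAAT occurred 2 times in the Fezf1 window and in 37.5% of all windows, and TATAAA, present in 14.2%, occurred in neither. The matches did not overlap each other, and a match is only a match of letters.

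Fezf2 was near the floor of the array in normal lung and bright in every tumor. Its probe had a single spot, which carried no outlier mark and was well above background on all 8 arrays. The background-subtracted processed signal was 27.0, 17.4 and 14.8 in normal lung 1 to 3, and 3513, 3256 and 2846 in lung tumor 1 to 3. The groups did not overlap, and the lowest tumor signal was 106 times the highest normal signal. After quantile normalization within the 6 lung arrays, the log2 signals were 4.98, 4.05 and 4.05 in normal lung and 11.78, 11.70 and 11.51 in tumor. The spread within a group was 0.93 in normal lung and 0.28 in tumor on this log2 scale, while the gap between the groups was 6.53. The difference of the means was 7.30 (SE 0.28), a fold of 158. In the 3 matched pairs, tumor exceeded normal lung by 6.81, 7.65 and 7.46. Among the mRNA probes of its own array, Fezf2 stood at the 27th to 32nd percentile in normal lung and at the 66th to 68th percentile in tumor. In such bulk tissue, a change in the number of cells of a type and a change in RNA per cell cannot be told apart.

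The 3 normal lung arrays differed from each other by less than the noise between the spots of a probe, as did lung tumors 2 and 3, and each set was therefore also counted as 1 sample. Counted so, Fezf2 was 11.69 ± 0.13 (SD, n = 2) in tumor and 4.36 in the single normal sample on the log2 scale, a difference of 7.33. The arrays lay on 3 slides, with the 3 normal lungs and tumor 1 on slide 1 and tumors 2 and 3 on slide 2. Within slide 1 the Fezf2 difference was 7.43.

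Fezf1 showed no such separation. Its processed signal was 11.2, 29.5 and 11.0 in normal lung, with only the second well above background, and 15.6, 22.4 and 13.4 in tumor, each well above background. The groups overlapped, and the log2 difference of -0.17 (SE 0.41) was smaller than its error. Counted once, tumor was 3.98 ± 0.25 (SD, n = 2) against 4.08, and within slide 1 the difference turned to 0.07. Fezf1 took rank 4982 of 8637 mRNA probes tested, and no direction can be given for it.

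In blood, Fezf2 was well above background on both arrays. Its processed signal was 101 in control blood and 173 in NNK blood, above each normal lung and below each tumor. On log2 scales that put all 8 arrays together by quantile normalization, the blood values were 9.63 and 9.08, between normal lung (3.95 to 4.82) and tumor (10.58 to 10.83). The blood arrays were dimmer as a whole, with a 75th percentile of processed signal of 95.4 and 206, against 1191 to 1329 in lung. Among the mRNA probes of its own array, Fezf2 stood at the 68th percentile in control blood and at the 63rd in NNK blood, close to its place in the tumors. NNK blood exceeded control blood by 1.72 times in processed signal, which is not normalized between arrays. After quantile normalization of the 2 arrays it differed by -0.33 on the log2 scale, and each other normalization also put it lower. Both sizes were under a fold of 2, which 26.0% of 10107 mRNA probes exceeded upwards and 17.8% downwards. Fezf1 had a processed signal of 3.24 in control blood, not well above background, and 31.2 in NNK blood, well above it. With control blood set to the lowest detectable level, the ratio was under 1, so no fold is given. With 1 array a group, these blood values have no replicate check and no test.

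**Figure D1:**
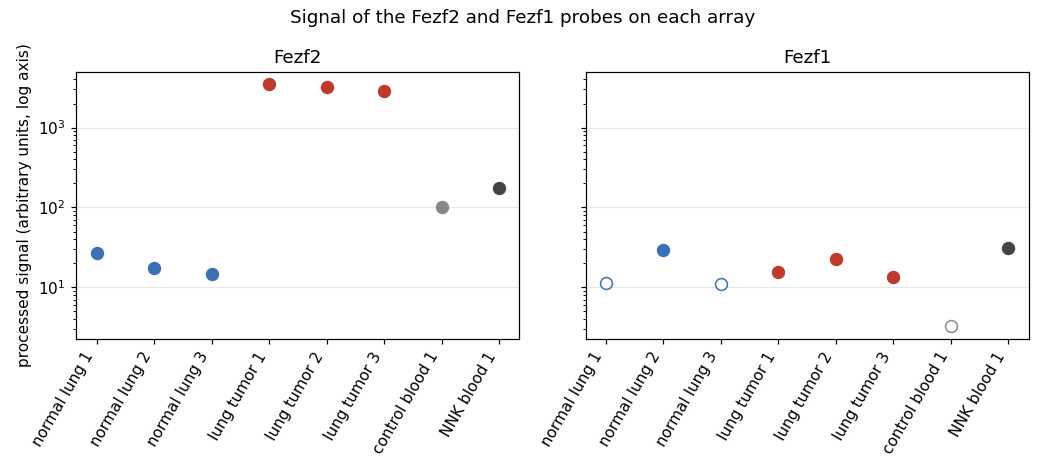
Processed signal of the Fezf2 and Fezf1 probes on each of the 8 arrays, on a log axis, with filled points well above background and open points not. Fezf2 ranged from 14.8 to 27.0 in normal lung and from 2846 to 3513 in tumor, with both blood arrays between, while the Fezf1 points of normal lung and tumor overlapped.

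By the log2 difference between tumor and normal lung, Fezf2 took rank 1 of the 8637 mRNA probes tested, and rank 3 of the 12471 probes when lncRNA probes were counted. Only 2 mRNA probes tested exceeded 7 on this scale. With outlier-marked spots kept, 5 did, and Fezf2 (7.30) took rank 3, after the unnamed mRNA NM_001107400 (7.90), which had 2 marked spots in lung, and Dlx1 (7.32). The next was Dlx1, a homeobox factor of forebrain interneurons, with processed signals of 71.4, 85.8 and 80.5 in normal lung and 11370, 13680 and 14140 in tumor. Its log2 difference was 7.25 (SE 0.13), measured without the spot of tumor 3, which carried an outlier mark. Upk3bl1 and Adamts19 followed, but both were below background in all normal lungs, so that their places depend on the level of the array floor. Among the 8312 mRNA probes well above background on at least 1 array of each group, Fezf2 also took rank 1. The values of Fezf2 and Dlx1 lay closer together than the SE of Fezf2, and their order is not settled. Fezf2 kept rank 1 in 9 of 15 alternative settings, took rank 2 in 4 and rank 3 in 2. Among the 9, those without lung tumor 1 or lung tumor 2 left Dlx1 with too few unmarked tumor values to be tested. The floor and the changes of the filter left both values as they were and could not alter their order. Fezf2 fell behind Dlx1 with normal lung 2 or normal lung 3 left out (7.15 against 7.25, and 7.15 against 7.30).

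**Figure D2:**
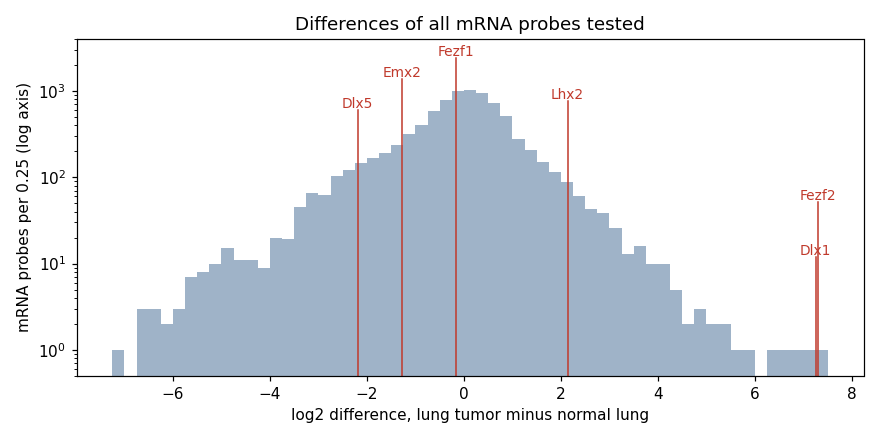
Histogram of the log2 difference, lung tumor minus normal lung, over the 8637 mRNA probes tested, with a log axis for the number of probes. Marks show Fezf2, Fezf1, Dlx1, Lhx2, Emx2 and Dlx5. Fezf2 lies at 7.30 on the right edge and Fezf1 at -0.17 near the centre.

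The genes whose pattern over the 6 lung arrays was most like that of Fezf2 were named by the root mean square difference of their centred log2 signals, among 6847 named mRNA probes (median over all 3.65). Upk3bl1, a uroplakin-like gene, was nearest (0.46). It was followed by Cbln4, a secreted synapse organiser of the cerebellin family (0.55), and Adamts19, a secreted metalloprotease (0.59). Next came Ptges, the microsomal prostaglandin E synthase (0.76), and Tescl, a tescalcin-like gene (0.88). Adipoq, the fat-cell hormone adiponectin, stood at 1.06, and Pla2g10, a secreted phospholipase A2, at 1.15. Gh1, growth hormone, stood at 1.19, Cldn6, an embryonic tight junction claudin, at 1.25, and Bpifb1, a secreted airway protein, at 1.28. Such likeness over 6 arrays in 2 groups mostly states that these genes were also far higher in tumor.

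For 6 of these genes no normal lung array was well above background, so only a bound can be given, and their likeness to Fezf2 in normal lung was measured at the array floor. In tumor Cbln4 was at least 34.1-fold higher, Adamts19 at least 31.2-fold, Tescl at least 26.9-fold, Upk3bl1 at least 22.3-fold, Bpifb1 at least 18.8-fold and Gh1 at least 8.52-fold higher. The other 4 were measured in both groups. Ptges had processed signals of 48.2 to 55.9 in normal lung and 3177 to 3697 in tumor, a log2 difference of 5.92 (SE 0.14). Cldn6 had 325 to 354 in normal lung and 8827 to 11960 in tumor, a difference of 4.87 (SE 0.12). Adipoq differed by 5.27 and Pla2g10 by 5.12 on the log2 scale.

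Blood separated them. Over all 8 arrays Cbln4 was the nearest of all candidates (0.89), Tescl took rank 3, Ptges rank 5 and Cldn6 rank 12, whereas Upk3bl1 took rank 108 and Pla2g10 rank 4830. Cldn6 was well above background on both blood arrays, as Fezf2 was, but far brighter. It had 7456 in control blood and 7140 in NNK blood, against 101 and 173 for Fezf2. Cbln4 (16.9 and 48.7) and Ptges (51.6 and 95.5) were also well above background on both blood arrays. Upk3bl1, Adamts19, Pla2g10 and Bpifb1 were not above background on either.

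**Figure D3:**
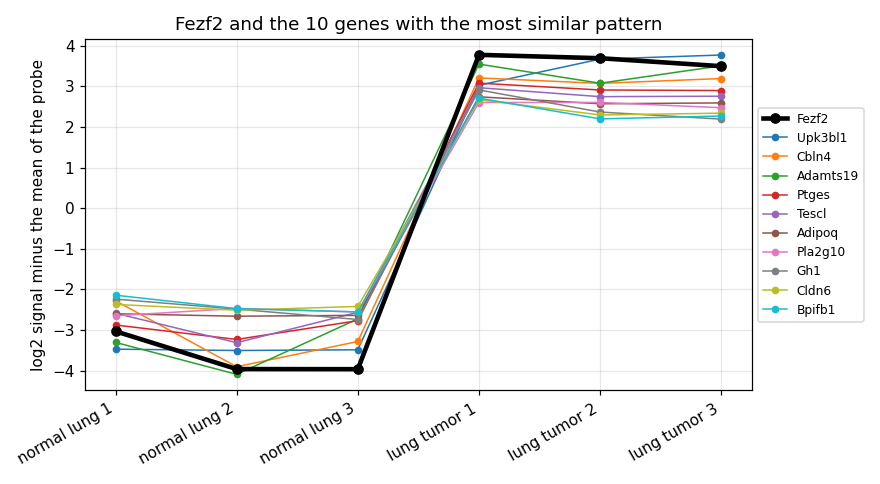
Log2 signal of Fezf2 and the 10 genes nearest to it in pattern on the 6 lung arrays, each centred on its mean over these arrays. All 11 genes lie below 0 in the normal lungs and above 0 in the tumors, and Fezf2 spans the widest interval, from -3.96 to 3.77.

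Genes tied to the known roles of Fezf2 and Fezf1 were then counted in 6 lists of 84 genes, of which 57 were on the array, 38 passed the filter on dim probes and 29 were tested with limma. In tumor 4 of these 29 were higher and 11 lower at a fold of 2 and a Benjamini-Hochberg adjusted p of 0.05, or 13.8% and 37.9%. Among the 11, Slc17a7 and Apob were above background on no tumor array. Both passed the filter only through normal lung, so their part in the 37.9% is no support for a direction. Over all mRNA probes tested the shares were 11.5% higher and 16.8% lower (28.3% in either direction), with a median log2 difference of 0.00. When near-identical arrays were counted once, 2 of these genes were higher (Dlx1 and Lhx2) and 5 lower (Ldb2, Slc17a7, Dlx5, Ccl21 and Mup4), against 5.89% and 8.54% of all mRNA probes.

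Groucho corepressors, the partners of both proteins, had 4 members on the array, and 1 of them, Tle4, could be tested (-0.04, not called). The others lost spots to outlier marks. Of the brightest 2, Tle3 had processed signals of 6063, 6494 and 5332 in normal lung and 7411, 4833 and 4857 in tumor, so its groups overlapped. Tle5, a short member of the family that lacks the WD40 repeats, had 5662, 5926 and 5102 in normal lung and 2775, 1925 and 1852 in tumor. Its groups did not overlap, and with marked spots kept its log2 difference was -1.29 (adjusted p = 0.00124 with limma).

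Of the 20 cortical projection neuron genes, 11 were on the array, 7 passed the filter, 4 were tested, 3 were lower in tumor and none was higher. Slc17a7, the vesicular glutamate transporter 1 and a gene that Fezf2 is known to activate in cortical neurons, had 56.1, 68.5 and 110 in normal lung and 2.60, 1.98 and 2.31 in tumor. Below background in every tumor, it was at least 9.20-fold lower. It passed the filter on dim probes only through normal lung, so its place among the genes called lower is no support for a direction of the list. Ldb2, a LIM-domain cofactor of corticospinal neurons, fell by 2.54, and Pcp4, a calmodulin-binding peptide of deep-layer neurons, fell by 1.58. Ephb1, an axon guidance receptor and another known target of Fezf2 in these neurons, was brighter in tumor. Its processed signals were 190, 218 and 196 in normal lung and 3561, 6079 and 6245 in tumor, where all 3 spots carried outlier marks and were left out of the test. With marked spots kept, the log2 difference of Ephb1 was 4.64 (adjusted p = 4.25e-05 with limma), and the list then held 1 gene higher and 4 lower of 7 tested. Of all 11432 mRNA probes tested in that fit, 1337 were higher and 1744 lower. Sox11, Pou3f2 and Pou3f3 were not above background on any lung array.

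Of the 22 forebrain patterning factors 10 were tested, 2 were higher and 2 lower. Besides Dlx1 (adjusted p = 9.04e-06 with limma), Lhx2, a LIM homeobox factor of cortical progenitors, rose from 50.6, 51.8 and 39.4 to 230, 239 and 252, a log2 difference of 2.14 (SE 0.10). Emx2, a homeobox factor that patterns the cortex, went from 116, 127 and 123 to 61.1, 59.9 and 60.1, a difference of -1.27 (SE 0.09). Dlx5, a relative of Dlx1, went from 316, 360 and 306 to 91.0, 76.5 and 81.7, a difference of -2.19 (SE 0.12). The groups did not overlap for any of these genes, and members of the Dlx family thus moved in opposite directions.

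Of the thymic epithelium genes, 8 of 14 were on the array and 4 were tested, with 2 lower and none higher. Cd40, a receptor that acts in medullary epithelial growth, fell by 2.33 and Ccl21, a chemokine of medulla and lymphatics, fell by 1.84 on the log2 scale. Foxn1, the master factor of thymic epithelium, was not above background on any lung array, and Cd80 and Prss16 were so on 1 tumor array each. Of 5 tissue-restricted antigen genes tested, 3 were lower and 1 higher. Mup4, a major urinary protein, fell by 4.37, and Fabp9, a testis fatty acid binding protein, fell by 2.60. Apob, an apolipoprotein of liver and gut, was at least 11.6-fold lower, again with no tumor array above background. It too passed the filter only through normal lung and is no support for a direction of this list. Calb1, a calcium-binding protein of neurons and kidney, rose by 1.27.

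The olfactory system genes, tied to Fezf1, had 5 of 12 members tested, with 1 higher and 1 lower. Rtp1, a chaperone of odorant receptors, rose by 1.20 (adjusted p = 0.0450 with limma), while Ebf1, a factor of olfactory neurons and B cells, fell by 1.49. The call of Rtp1 was lost in 12 of 19 alternatives, 5 of the 6 that left out an array among them. Its processed signal in tumor 1 was 28.7, within the 17.8 to 29.1 of normal lung, against 89.0 and 86.2 in tumors 2 and 3. With marked spots kept, 7 were tested, 1 was higher and 3 were lower, beside 1337 higher and 1744 lower of all 11432 mRNA probes. Omp, the olfactory marker protein, was not above background on any lung array.

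**Figure D4:**
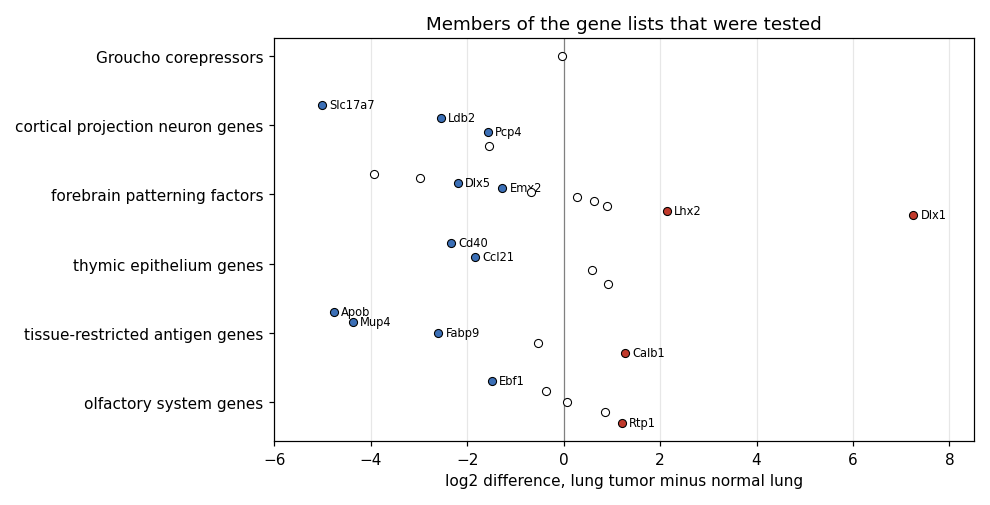
Log2 difference, lung tumor minus normal lung, of each tested gene of the 6 lists, 1 row a list, with filled points for called genes. Dlx1 at 7.25 stands alone on the right, and 11 of the 15 called genes lie below 0.

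Markers of neurons, neuroendocrine cells and T cells or thymocytes were set beside the result. Of all mRNA probes tested, 11.5% were higher and 16.8% lower in tumor. Of 9 neuron markers on the array, Map2, Syt1, Rbfox3 and Elavl4 were not above background on any lung array, and the summed processed signal of all 9 was 1174 to 1893 in normal lung and 755 to 1055 in tumor. Among the 5 tested, Nefl was higher (1.18) while Nefm (-1.08) and Stmn2 (-1.90) were lower. The calls of Nefl and Nefm were lost when near-identical arrays were counted once (adjusted p = 0.172 and 0.319 with limma), and that of Stmn2 was not. The 9 neuroendocrine markers summed to 6770 to 7880 in normal lung and 8769 to 10810 in tumor. Uchl1 alone carried this increase, since the other 8 summed to 6056 to 6985 in normal lung and 3465 to 3794 in tumor. Of 8 tested, Uchl1 was higher (2.95), and Chgb (-1.36) and Syp were lower. Syp had 1052, 724 and 432 in normal lung and 249, 2.22 and 12.6 in tumor, with only tumor 1 above background. Counted once, the calls of Chgb and Syp were lost (adjusted p = 0.197 and 0.343 with limma). The 3 probes of Calca, the calcitonin gene, disagreed, since the brightest was not called (-0.27) and another was lower (-1.45). The 9 T cell and thymocyte markers summed to 19780 to 21750 in normal lung and 10700 to 11840 in tumor, and 1 of 5 tested, Cd8a, was lower (-1.42).

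The lung labels were checked in the same way, beside the same shares of 11.5% higher and 16.8% lower. All 9 type 2 alveolar markers were above background on every lung array, with sums of 1028000 to 1107000 in normal lung and 1352000 to 1457000 in tumor (1 higher of 8 tested). The 10 type 1 alveolar markers summed to 1357000 to 1523000 in normal lung and 522700 to 563100 in tumor (5 lower of 8 tested). The 7 red blood cell markers included Hba1 and Hba2, which shared 1 probe, so its signal entered the sums for each of them. These sums were 218700 to 247900 in normal lung, 141400 to 151900 in tumor and 2575000 and 2607000 in the blood samples. Of the 5 red blood cell markers tested, 4 were lower in tumor. The part of these shifts in the values of Fezf2 was not tested.

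The chromosomal neighbours of both genes did not share the rise of Fezf2. Of the 5 nearest genes on each side with a probe, 20 in all, 14 were tested. None was higher in tumor, against 11.5% of all mRNA probes, and 5 were lower (35.7%, against 16.8%). With near-identical arrays counted once, the log2 differences of these 5 were -3.445 (Fam107a), -1.615 (Aass), -1.308 (Fam3d), -1.206 (Iqub) and -1.126 (Ptprz1). Not all 5 stayed called in that fit, which had a single normal sample. Next to Fezf2 on chromosome 15, Cadps, a factor of dense-core vesicle release, had a log2 difference of -0.20 (SE 0.16). Cep15 on the other side had processed signals of 1167, 1059 and 804 in tumor, within the 620 to 1262 of normal lung, and lost 2 tumor spots to outlier marks. Ptprg, a receptor phosphatase, differed by -0.75 (SE 0.64), and Fhit, a tumor suppressor at a fragile site, by -0.70 (SE 0.13), under the fold of 2. Synpr, a synaptic vesicle protein, and Sntn, a protein of cilia tips, were not above background in tumor. Farther out, Fam3d (-1.33) and Fam107a (-3.49) were lower. Next to Fezf1 on chromosome 4, Aass, an enzyme of lysine breakdown, fell by 1.64, and Ptprz1, a receptor phosphatase, fell by 1.14. Fam3c differed by 0.88, under the fold of 2, Rnf133 by -0.04, and Iqub, farther out, was lower by 1.21.

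**Figure D5:**
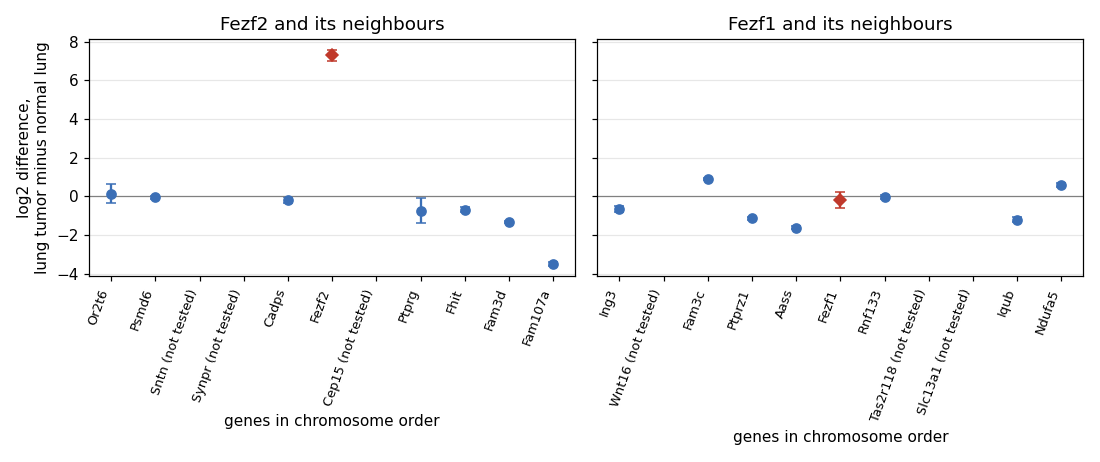
Log2 difference, lung tumor minus normal lung, of Fezf2, Fezf1 and the 5 nearest genes on each side of each that have a probe, in chromosomal order, with bars for the SE. Fezf2 at 7.30 stands among neighbours that lie between -3.49 and 0.14, and the genes around Fezf1 lie between -1.64 and 0.88.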

How the data were processed

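For each of 8 arrays the authors deposited the spot intensities given by Agilent Feature Extraction 10.5.1.1, whose processed signal is background-subtracted but not normalized between arrays. A table of log2 values that the authors quantile-normalized over all 8 arrays in GeneSpring served as an alternative. With R 4.3.3 and limma 3.58.1, log2 processed signals of 42136 non-control spots were quantile-normalized within the 6 lung and the 2 blood arrays. Outlier-marked spots (4.92 to 8.62% of spots above background in normal lung, 15.9 to 25.3% in tumor) were left out, no spot was saturated, and spots of a probe were averaged. Probes well above background (over 50% of their spots) on at least 3 lung arrays were kept, 11432 of 15323 mRNA probes, of which 8637 had values on 2 arrays of each group. The outlier marks removed 2795.

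Lung groups were compared with lmFit and eBayes (12471 probes, Benjamini-Hochberg adjustment, fold of 2 and adjusted p of 0.05). The number of arrays limits the precision, and p-values measure only the spread between these arrays. For a probe below background in a group, the fold is a bound against the lowest signal well above background. mRNA probes were named through RefSeq accessions of GRCr8 (93.2% matched), and of several probes of a gene the brightest tested was used. On simulated data 86% of 200 probes changed by 2 on the log2 scale, among 11359, were recovered, with 4 false calls.

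The members and lists were chosen with earlier results of these data known. Genes named were the called list members with the largest change (at most 3 a direction, or the brightest 2 where none was called), neighbours within 3 genes, the 10 nearest patterns and the next 3 ranks. Others, among them Ephb1, Calca, the not detected markers and the farther neighbours, were chosen after their values were seen. The lung samples are labelled as matched. Deviations of same-numbered arrays from their group means correlated at 0.14, -0.04 and 0.16. Alternatives changed the normalization, the background correction, the source of the values, a floor, the outlier marks, the filter, the arrays left out or counted once, the blocks and the test.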

Additional observations from a re-analysis of the deposited data

How the results depend on the processing

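The Fezf2 difference between lung tumor and normal lung stayed positive in all 15 alternatives, from 5.20 with normexp to 7.61, with 6.48 after quantile normalization over all 8 arrays, 6.45 in the authors' values and 7.15 to 7.61 with 1 lung array left out. Its rank was 2 with quantile normalization over all 8 arrays and with normexp, 3 in the authors' values and with marked spots kept, and 1 to 2 with 1 array left out. Without lung tumor 1 or lung tumor 2, Dlx1 was not tested. The Fezf1 difference changed sign among alternatives (-0.39 to 0.21). The cause was not tested.

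Counting near-identical arrays once lowered the mRNA calls from 997 to 501 higher and from 1451 to 726 lower, and the related genes to 2 higher and 5 lower, in a fit with fewer samples. Normexp left 2 related genes higher, and leaving out 1 array gave 2 to 4, with the 2 when lung tumor 2 was left out. With the replicate number as a block for the matched pairs, 964 mRNA probes were higher and 1464 lower, and related genes were 3 higher and 12 lower, within 1.5 times of the fit without it. The mRNA counts over all alternatives ran from 501 to 1348 higher and from 726 to 1744 lower.

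In blood the Fezf2 difference was -0.33 with the 75th percentile shift, -0.54 with quantile normalization over all 8 arrays, -0.30 with normexp and -0.61 in the authors' values. For Fezf1 the same settings gave 2.16, 2.16, 0.26 and 2.56, but control blood was not above background, so these are set by the array floor and are no measured difference. Signal near background limits Fezf2 in normal lung and Fezf1 throughout.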
